A study of Mus musculus with 16 samples.

Results

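Genes of glucose transport, glycolysis and the lactate shuttle were followed in the hippocampus of aged 3xTg-AD mice. The set is a list of 34 genes chosen by their role in this pathway, and each gene was read from the probe set with the highest mean over the 16 arrays among those with a single gene symbol. Of the 34 genes, 32 had such a probe set, and the expression of Gpi1 and Eno1 was not analysed here. After a filter on low values, 31 of the 34 were tested among 12265 genes in all. Slc2a4, the insulin-responsive glucose transporter, was the gene left below the filter, with a log2 value of 2.06 ± 0.02 in control animals and 2.08 ± 0.06 in animals given pioglitazone (SD, n = 8 each).

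The study asked how pioglitazone (PIO), a thiazolidinedione that activates the nuclear receptor PPARγ, alters the brain in a model of Alzheimer's disease. Total RNA came from the hippocampus of 16 female mice, 14 months old and each of them 3xTg-AD: 8 ate a control diet and 8 a diet with PIO at 84 ppm, which gave a dose of about 18 mg/kg body weight per day. Both diets ran for about 14 weeks from 10 months of age. The 3xTg-AD line carries mutant human APP and tau transgenes under the neuronal Thy1 promoter on a mutant presenilin 1 background, so both groups shared these alleles and no mouse without them was compared here. Each array was of 1 numbered animal, so the animal was the replicate.

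Glucose enters the brain across the capillary endothelium through GLUT1 (Slc2a1) and enters neurons mainly through GLUT3 (Slc2a3). Glycolysis splits it into pyruvate, which either passes into mitochondria through the pyruvate dehydrogenase complex or is reduced to lactate. In the lactate shuttle model, astrocytes, which also hold the brain's glycogen, export lactate through monocarboxylate transporters and neurons take it up as fuel. The members are described below in that order, from uptake to pyruvate oxidation and glycogen.

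The deposited values were on a log2 scale, so a difference of 1 is a 2-fold change, and levels were not compared between genes because probe sets differ in brightness. Any 2 arrays correlated at 0.994 to 0.998 over all probe sets. Markers of hippocampal neurons, oligodendrocytes and astrocytes were present, with 8 of 8, 11 of 11 and 10 of 10 measured markers above the filter. Some animals stood apart by other markers. PIO animals 14 and 15 had the highest means of the striatal marker list (0.67 and 0.86 above the mean of all arrays, against -0.26 to 0.30 in controls) and the lowest of the hippocampal neuron list (-0.51 and -0.60), with the striatal marker Drd2 below the filter. PIO animal 16 had the highest mean of the thalamic list, at 1.51. Markers of the choroid plexus, the epithelium that makes cerebrospinal fluid, differed widely between animals of both groups, from -3.01 to 2.34 in controls and from -3.36 to 2.55 under PIO. In whole tissue, fewer cells of a type and less RNA per cell cannot be told apart.

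PIO was accompanied by no detected change in this pathway at the resolution of 8 animals against 8. By limma's moderated test with Benjamini-Hochberg adjustment over 12265 genes, an adjusted p under 0.05 was reached by 0 of the 31 members and by 0 of all genes (0%). At an unadjusted p of 0.05 the count was 0 of 31 members, against 859 of 12265 genes (7.00%), which were 473 higher (3.86%) and 386 lower (3.15%) under PIO. Of the members, 15 had a higher mean under PIO and 16 a lower mean. The median difference was -0.0027 on the log2 scale, against 0.0045 over all genes tested. The differences ran from -0.11 for Slc16a1 to 0.088 for Slc2a1, and 23 of 31 were smaller than their own standard error. The 95% confidence intervals were narrow for most members: 29 of 31 lay wholly within a 1.25-fold change in either direction, and 15 within 1.1-fold. The widest limits were -20.7% for Hk2 and 25.0% for Slc2a1. The groups overlapped for every member tested, while over all genes 4 of 12265 had ranges that did not overlap (0.0326%).

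**Figure D1:**
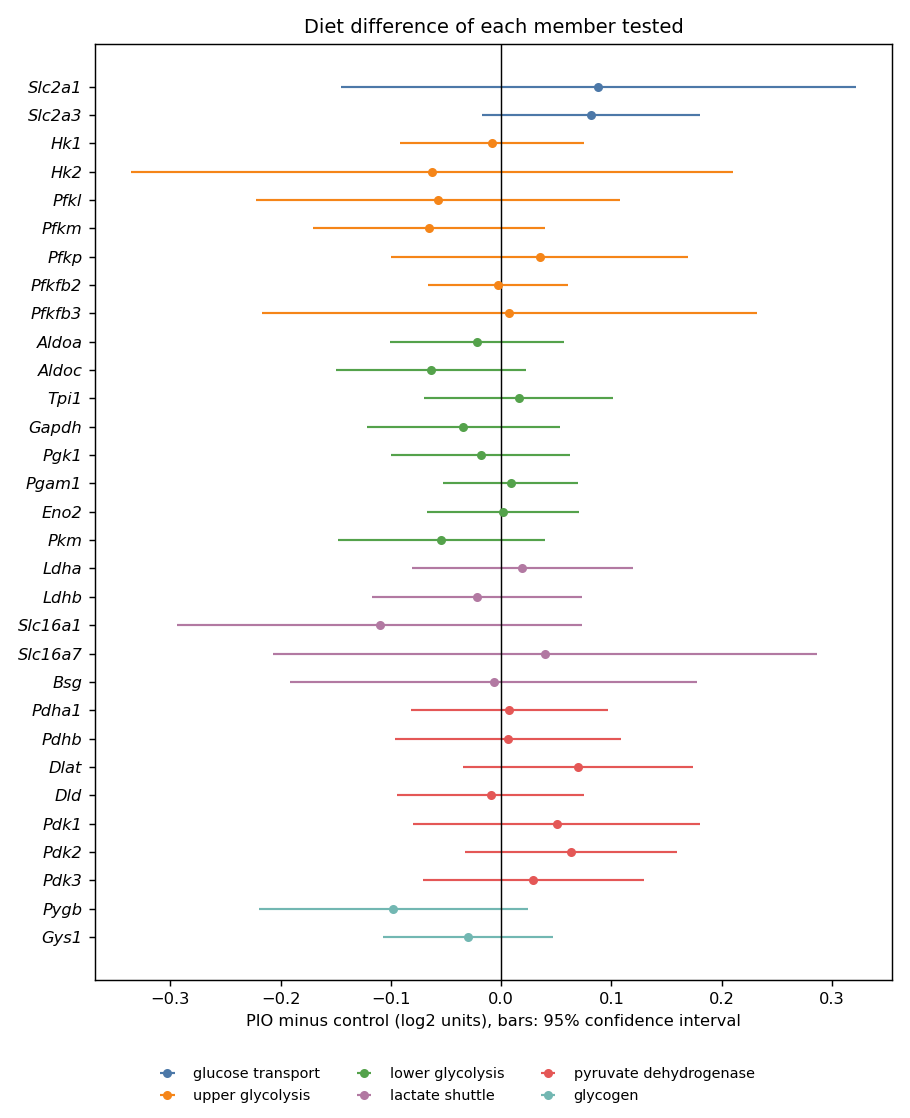
Difference between PIO and control means (log2 units, x axis) for the 31 members tested, coloured by role, with 95% confidence intervals from limma. Every interval crosses 0, and the differences lie between -0.11 and 0.088.

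Both glucose transporters that passed the filter had higher means under PIO, and neither difference passed the test. Slc2a1, the endothelial and glial transporter, read 11.59, 11.84 and 12.13 (lowest, median and highest log2 value) in controls and 11.49, 11.94 and 12.26 under PIO. The groups overlapped, with 3 PIO animals above the highest control and 1 below the lowest. Its difference was 0.088 (SE 0.11, adjusted p = 0.893 by limma), and its interval ran from -9.59% to 25.0%. It was 0.042 without PIO animals 14 and 15, -0.030 without PIO animals 14 to 16 and 0.16 among arrays numbered 10 to 24 alone. With the choroid plexus marker mean as a covariate it was 0.0081 (SE 0.089). Slc2a3, the neuronal transporter, read 12.38, 12.51 and 12.63 in controls and 12.47, 12.59 and 12.72 under PIO. Here 6 of 8 PIO animals lay above the control median and 3 above the highest control. The difference of 0.081 (SE 0.047) had the smallest unadjusted p of any member, 0.101, with an adjusted p of 0.762 by limma and an interval from -1.21% to 13.3%.

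Slc2a3 was also the member whose probe sets pointed the same way with the largest differences. Its 4 probe sets all passed the filter and all had higher means under PIO, by 0.081 (SE 0.048), 0.12 (SE 0.046), 0.19 (SE 0.094) and 0.22 (SE 0.087), in order of falling brightness. Of these, 2 had an unadjusted p under 0.05 in the test of every probe set, and the smallest adjusted p of any member's probe set was 0.652 by limma. Over all members, 64 of 71 probe sets passed the filter, 30 with a higher and 34 with a lower mean, and 3 had an unadjusted p under 0.05 (4.69%, against 7.23% of all probe sets). All 3 were higher, against 4.05% of all probe sets higher and 3.17% lower at that threshold, and the third belonged to Dlat. The 4 probe sets read the same RNA of the same animals and are not separate evidence. In the 2 dimmer probe sets the PIO animals split. PIO animals 13 to 16, on arrays 21 to 24, read 8.80 to 8.89 and 7.86 to 8.17, above every control (8.28 to 8.69 and 7.47 to 7.84). PIO animals 9 to 12 read 8.33 to 8.47 and 7.58 to 7.75, within the control ranges. Arrays 21 to 24 held no control. Controls were on arrays 1 to 4 and 10 to 13, and PIO animals on 5, 6, 17, 18 and 21 to 24, so array number and diet cannot be fully told apart. By the brightest probe set, the 2 highest PIO animals were 14 and 15, which had the high striatal signal. Without these 2 animals the difference was 0.047 (SE 0.048). It was 0.065 without PIO animals 14 to 16 and 0.12 among arrays numbered 10 to 24 alone. The part of PIO animals 14 and 15 in the difference was not tested further.

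**Figure D2:**
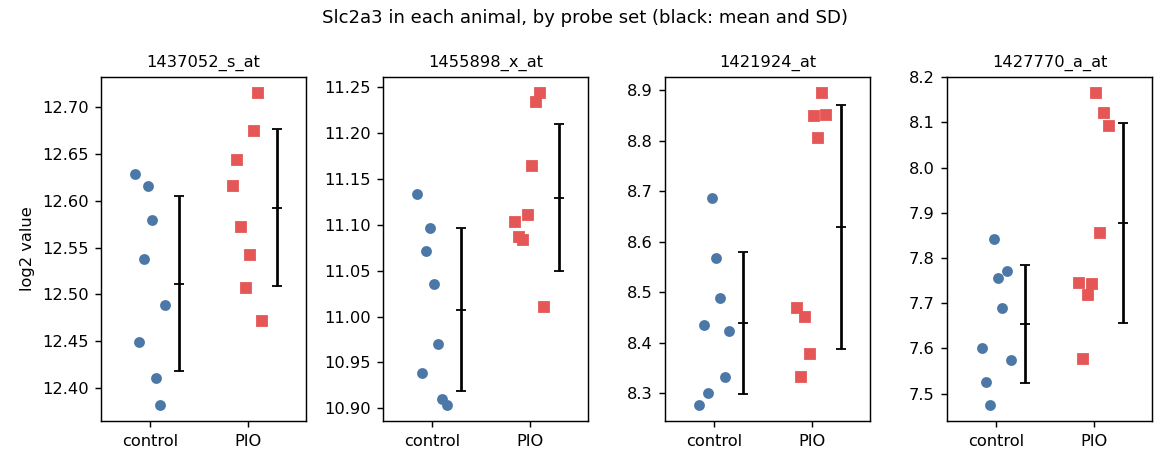
Log2 values (y axis) of Slc2a3 in each of 8 control and 8 PIO animals for its 4 probe sets, with the mean and SD in black. PIO means are higher in all 4 panels, by 0.081 to 0.22, and the groups overlap in each.

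Among the 7 tested genes of the upper, energy-investing steps, 2 had higher and 5 lower means under PIO, and none passed the test. Hk1, the main hexokinase of neurons, read 12.82, 12.99 and 13.13 in controls and 12.90, 12.98 and 13.06 under PIO. The PIO range lay inside the control range, and the difference was -0.0079 (SE 0.039, adjusted p = 0.979 by limma). Hk2, the inducible hexokinase, had the widest spread of any member, from 5.85 to 6.97 in controls and from 6.15 to 6.53 under PIO. The phosphofructokinase subunits catalyse the committed step. Pfkm, the muscle-type subunit, read 12.63, 12.77 and 12.89 in controls and 12.60, 12.67 and 12.91 under PIO. Only 2 of 8 PIO animals lay above the control median, with 1 above the highest control, and the difference was -0.066 (SE 0.050, adjusted p = 0.804 by limma). The liver-type Pfkl and platelet-type Pfkp differed by -0.057 and 0.035. Pfkfb3 makes fructose 2,6-bisphosphate, the main activator of phosphofructokinase, and is kept low in neurons and high in astrocytes. It read 8.85, 9.20 and 9.43 in controls and 8.76, 9.21 and 9.46 under PIO. The groups covered the same range, with a difference of 0.0072 (SE 0.11, adjusted p = 0.994 by limma). The difference was 0.12 without PIO animals 14 and 15, 0.15 without PIO animals 14 to 16 and 0.13 among arrays numbered 10 to 24 alone. The related Pfkfb2 differed by -0.0027, with one of the smallest spreads of the set.

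The 8 tested genes of the lower steps, from aldolase to pyruvate kinase, were the most tightly measured group by role. Their median standard error was 0.039, against 0.047 over all members. All 8 intervals lay within a 1.25-fold change, as did all those of the lactate shuttle, pyruvate oxidation and glycogen genes. Of the 8 genes, 3 had higher and 5 lower means under PIO. Aldoc, the aldolase enriched in astrocytes, read 14.34, 14.51 and 14.55 in controls and 14.33, 14.41 and 14.56 under PIO. Only 1 of 8 PIO animals, animal 13, lay above the control median, and that animal was the highest of all. The difference was -0.064 (SE 0.041, adjusted p = 0.782 by limma), but the second Aldoc probe set pointed the other way, at 0.098 (SE 0.076). Aldoa, the widespread aldolase, differed by -0.022. Gapdh, which oxidises glyceraldehyde 3-phosphate, was measured through a control probe set for the 5′ part of its mRNA. It read 15.21, 15.25 and 15.44 in controls and 15.19, 15.23 and 15.38 under PIO, with a difference of -0.034 (SE 0.041, adjusted p = 0.889 by limma). Its 3′ minus 5′ difference was -0.22 to -0.11 on all 16 arrays, a ratio often read as a sign of RNA integrity. The same measure for Actb showed a 3′ excess on every array, of 0.77 to 0.93 in controls and 0.74 to 0.88 under PIO. The differences for Tpi1, Pgk1, Pgam1, Eno2 and Pkm ran from -0.054 to 0.016. For Pkm, which makes pyruvate, 4 of 8 PIO animals lay below the lowest control while 3 lay above the control median.

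In the lactate shuttle, 2 of 5 genes had higher and 3 lower means under PIO. Ldha, the subunit that favours lactate formation, read 12.55, 12.68 and 12.82 in controls and 12.56, 12.69 and 12.86 under PIO, so the ranges nearly coincided. Its difference was 0.019 (SE 0.048, adjusted p = 0.955 by limma). Ldhb, the subunit that favours pyruvate formation, read 13.77, 13.84 and 13.90 in controls and 13.63, 13.80 and 13.99 under PIO. The PIO animals spread further in both directions, and the difference was -0.022 (SE 0.045, adjusted p = 0.941 by limma). Slc16a1, the lactate transporter MCT1 of endothelium and glia, had the largest difference of any member. It read 11.68, 11.91 and 12.27 in controls and 11.63, 11.79 and 12.16 under PIO. Of the PIO animals, 2 lay above the control median and 2 below the lowest control, and the difference was -0.11 (SE 0.087, adjusted p = 0.820 by limma). It was -0.20 without PIO animals 14 to 16 and 0.020 among arrays numbered 10 to 24 alone. Slc16a7, the neuronal transporter MCT2, read 6.35 ± 0.12 in controls and 6.39 ± 0.33 under PIO (SD, n = 8 each). Bsg, the chaperone of MCT1, differed by -0.0067. The glial lactate exporter MCT4, Slc16a3, was below the filter.

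Of the 7 genes of pyruvate oxidation, 6 had higher means under PIO, by at most 0.070, and none passed the test. Dlat, the E2 core of the complex, read 11.17, 11.31 and 11.42 in controls and 11.25, 11.33 and 11.56 under PIO. The highest 3 PIO animals exceeded every control, and the difference was 0.070 (SE 0.049, adjusted p = 0.797 by limma). The E1 subunits Pdha1 and Pdhb differed by 0.0073 and 0.0062, and the E3 subunit Dld by -0.0096. The kinases Pdk1 to Pdk3 switch the complex off by phosphorylating E1. Pdk2 read 10.45, 10.54 and 10.69 in controls and 10.48, 10.59 and 10.75 under PIO. Its difference was 0.063 (SE 0.046, adjusted p = 0.801 by limma), with 6 of 8 PIO animals above the control median. Pdk1 read 9.97, 10.06 and 10.09 in controls and 9.84, 10.16 and 10.29 under PIO. The controls lay close together, and 5 PIO animals lay above the highest of them while 2 lay below the lowest. Its SD was 0.041 in controls and 0.17 under PIO, and its difference was 0.051 (SE 0.062, adjusted p = 0.889 by limma). Pdk3 differed by 0.029.

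Both glycogen genes had lower means under PIO. Pygb, the brain form of glycogen phosphorylase, read 11.54, 11.68 and 11.81 in controls and 11.28, 11.63 and 11.69 under PIO. Only 1 of 8 PIO animals lay above the control median, and PIO animals 14 and 15 lay below every control. The difference was -0.098 (SE 0.058, adjusted p = 0.762 by limma). It was -0.033 without PIO animals 14 and 15, and -0.019 with the astrocyte marker mean as a covariate. Gys1, the glycogen synthase of brain and muscle, differed by -0.030.

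**Figure D3:**
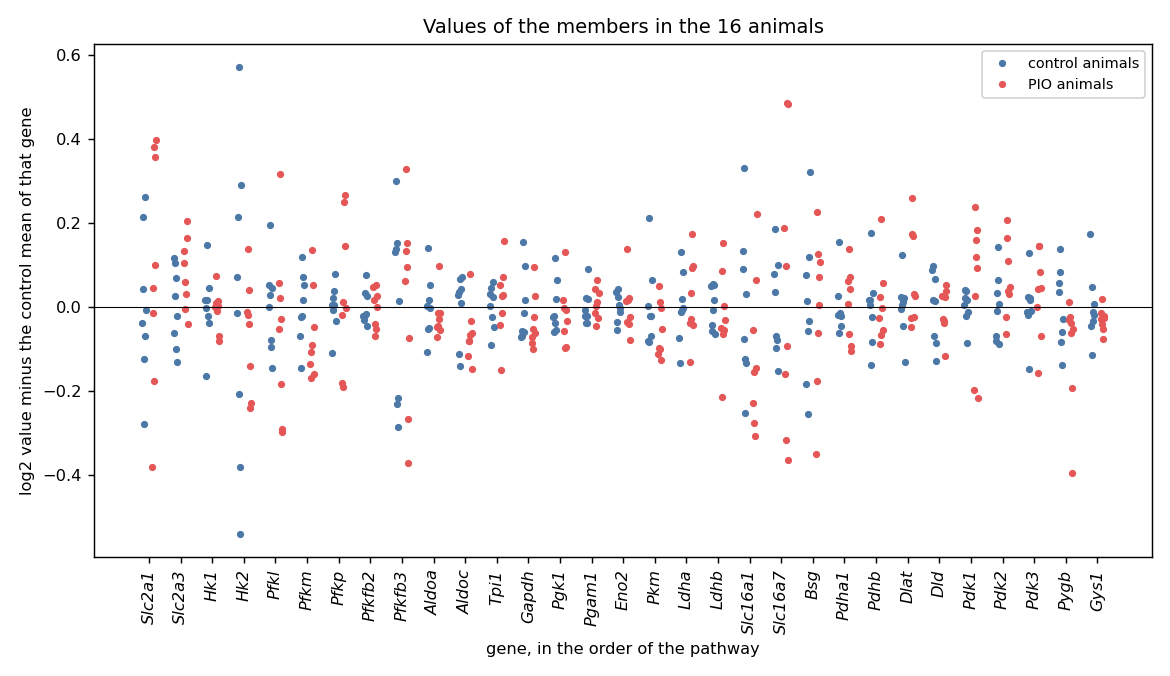
Log2 value of each of the 31 members in each animal, minus the control mean of that gene (y axis), with genes in pathway order on the x axis. Control and PIO animals overlap for every gene, and Hk2, Slc16a7, Slc2a1 and Pfkfb3 spread most.

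The other genes of glucose and glycogen handling gave a similar picture. Of 68 listed, 62 were measured and 51 tested, 26 with higher and 25 with lower means under PIO, and none passed the adjusted test. At an unadjusted p of 0.05 the count was 4 of 51 (7.84%, against 7.00% of all genes), 2 in each direction. Pygl, the liver form of glycogen phosphorylase, stood out among them. It read 7.50, 7.74 and 7.75 in controls and 7.71, 7.93 and 8.27 under PIO, and 6 of 8 PIO animals exceeded every control. The difference was 0.27 (SE 0.076), with an unadjusted p of 0.00226 and an adjusted p of 0.532 by limma. It was 0.20 without PIO animals 14 to 16. Pdp2, a phosphatase that reactivates pyruvate dehydrogenase, differed by 0.15 (SE 0.062). PIO animals 9 to 12, on arrays 5, 6, 17 and 18, read 5.94 to 6.13, above every control (5.64 to 5.82). By contrast, PIO animals 13 to 16 read 5.74 to 5.80, inside the control range. Arrays 5, 6, 17 and 18 held no control, so array number and diet cannot be told apart here either. The difference was 0.23 without PIO animals 14 to 16. Ugp2, which makes UDP-glucose for glycogen synthesis, differed by -0.12 (SE 0.048), with all 8 PIO animals below the control median. Gpd1, the cytosolic glycerol 3-phosphate dehydrogenase, differed by -0.15 (SE 0.066), and by -0.082 without PIO animals 14 and 15. Emb, a chaperone of the lactate transporter MCT2, differed by 0.39 (SE 0.20), and by 0.23 without PIO animals 14 to 16. Its values went with the choroid plexus markers in controls. Animals 2, 6 and 8, with marker means of 1.89 to 2.34, read 9.49 to 9.98. Animal 3, at 0.39, read 9.20, and animals 1, 4, 5 and 7, at -3.01 to -2.72, read 8.66 to 9.11. Under PIO the relation was looser. PIO animal 9, at -2.14, read 8.97, and PIO animals 11, 12 and 14 to 16, at 0.91 to 2.55, read 9.71 to 10.20. PIO animal 13 had the lowest marker mean, -3.36, but read 9.48, above the 9.32 of PIO animal 10, at 1.54. Phkg1, a catalytic subunit of phosphorylase kinase, differed by -0.14 (SE 0.075), and neither Emb nor Phkg1 passed an unadjusted p of 0.05. Pdk4, a PPAR target in muscle and liver, differed by 0.086 (SE 0.14, adjusted p = 0.916 by limma), and the mitochondrial pyruvate carrier gene Mpc1 by -0.031, while Mpc2 was not analysed here. Slc2a12 and the lactate transporter gene Slc16a8 had the widest spreads, with differences of 0.60 (SE 0.73) and 0.70 (SE 0.55), beside a choroid plexus signal that differed between animals of both groups. The choroid plexus marker mean was among the covariates fitted, but the values of that fit for these genes are not reported here. No correlation of these genes with that mean was tested.

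The arrays carried numbers whose meaning the labels do not give. Numbers 1 to 6 held 4 control and 2 PIO animals, and numbers 10 to 24 held 4 control and 6 PIO animals. With diet in the model, no member passed an adjusted p of 0.05 between these ranges in limma, against 1 of 12265 genes (0.00815%). At an unadjusted p of 0.05 the count was 5 of 31 members (16.1%), against 1249 of 12265 genes (10.2%). The 5 were 3 higher and 2 lower on arrays 1 to 6, against 5.71% and 4.48% of all genes. Pfkfb3 had the smallest p. Controls on arrays 1 to 6 read 9.26 to 9.43, above the 8.85 to 9.15 of controls on arrays 10 to 24, with no overlap. The 2 PIO animals on arrays 1 to 6 read 9.19 and 9.46, against 8.76 to 9.28 for the other 6. The difference with diet held was 0.31 (SE 0.086), with an unadjusted p of 0.0022 and an adjusted p of 0.241 by limma. Hk2 and Pygb were also higher on arrays 1 to 6, by 0.31 (SE 0.12) and 0.14 (SE 0.053). Bsg and Pdk2 were lower there, by -0.19 (SE 0.083) and -0.098 (SE 0.043). The array range and the diet are only partly balanced. Within each range controls held the lower numbers, 1 to 4 and 10 to 13, and PIO animals the higher. Number order within a range and diet therefore cannot be told apart. With the range as a term, the diet difference of Pygb went from -0.098 to -0.063 (SE 0.051) and that of Slc2a3 from 0.081 to 0.10 (SE 0.046). That of Pfkfb3 went from 0.0072 to 0.086 (SE 0.083), and that of Hk2 from -0.063 to 0.015 (SE 0.11), a change of sign within its error. Mean values of the hippocampal neuron list ran from 0.034 to 0.28 on arrays 1 to 6 and from -0.60 to 0.21 on arrays 10 to 24, and their part in these differences was not tested.

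**Figure D4:**
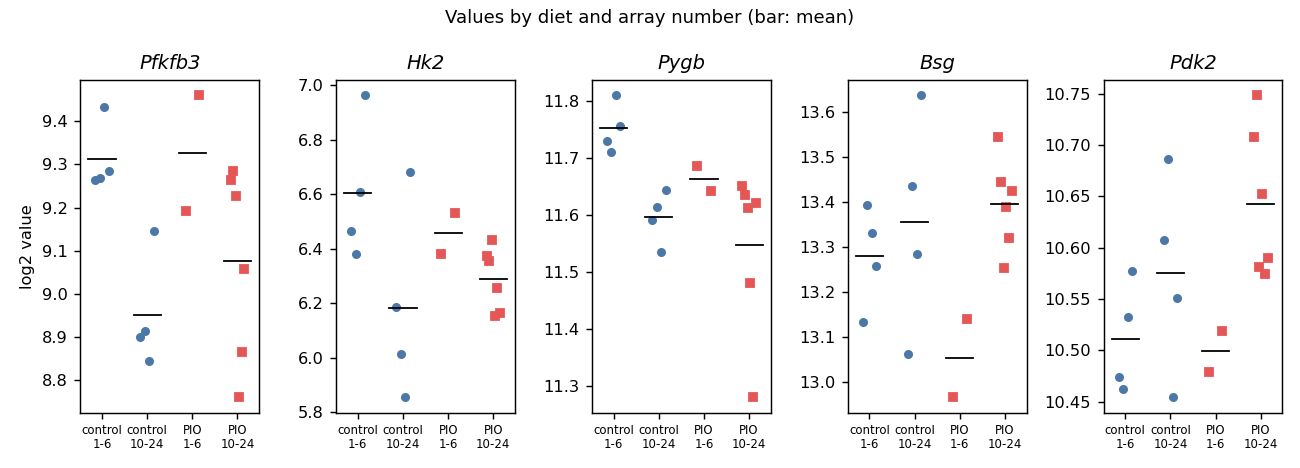
Log2 values (y axis) of the 5 members with an unadjusted p under 0.05 between array ranges, split by diet and array number on the x axis, with the mean as a bar. Pfkfb3, Hk2 and Pygb are higher and Bsg and Pdk2 lower on arrays 1 to 6.

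The promoters of Pfkfb3, Hk2 and Pygb, the members higher on arrays 1 to 6, and of Pdk2, which was lower there, are shown with the core of the hypoxia response element (ACGTG or GCGTG, searched on both strands) in capitals, because hypoxia-inducible factor is a known regulator of glycolytic genes. Each runs 5′ to 3′ along the gene, from 250 bases before to 50 after the first listed start in RefSeq. The palindromic E-box CACGTG overlaps this core and was counted on both strands.
Pfkfb3 (GRCm38.p6, chr2:11553880-11554179, minus strand): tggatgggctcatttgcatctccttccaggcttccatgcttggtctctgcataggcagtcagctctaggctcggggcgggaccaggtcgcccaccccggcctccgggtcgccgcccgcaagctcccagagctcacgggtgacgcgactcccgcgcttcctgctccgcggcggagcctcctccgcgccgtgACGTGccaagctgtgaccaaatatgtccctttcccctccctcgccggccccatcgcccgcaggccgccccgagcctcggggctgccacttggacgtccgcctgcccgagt
Hk2 (GRCm38.p6, chr6:82774405-82774704, minus strand): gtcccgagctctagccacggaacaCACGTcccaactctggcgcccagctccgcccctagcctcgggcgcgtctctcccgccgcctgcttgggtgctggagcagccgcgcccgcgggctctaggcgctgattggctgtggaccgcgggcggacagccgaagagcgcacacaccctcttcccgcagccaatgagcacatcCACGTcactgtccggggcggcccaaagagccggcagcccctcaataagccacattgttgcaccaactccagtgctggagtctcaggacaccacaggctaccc
Pygb (GRCm38.p6, chr2:150786546-150786845, plus strand): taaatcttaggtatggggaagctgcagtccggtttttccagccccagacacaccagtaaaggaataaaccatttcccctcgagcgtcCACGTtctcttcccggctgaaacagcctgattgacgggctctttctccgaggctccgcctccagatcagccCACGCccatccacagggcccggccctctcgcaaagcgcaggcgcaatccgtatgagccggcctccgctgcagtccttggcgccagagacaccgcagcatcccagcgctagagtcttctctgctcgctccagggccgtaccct
Pdk2 (GRCm38.p6, chr11:95041322-95041621, minus strand): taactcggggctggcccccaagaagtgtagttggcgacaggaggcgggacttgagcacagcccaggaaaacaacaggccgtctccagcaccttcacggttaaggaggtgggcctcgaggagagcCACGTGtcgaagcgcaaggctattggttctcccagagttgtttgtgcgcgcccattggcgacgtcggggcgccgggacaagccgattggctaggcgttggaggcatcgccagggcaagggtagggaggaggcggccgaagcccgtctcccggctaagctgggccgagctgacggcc
The core stood in 21 of 30 member promoters with an entry (70.0%), against 43.8% of 27025 genes. These 30 include Gpi1 and Eno1, whose promoters are listed though their expression was not analysed. The E-box CACGTG was in 5 of 30 (16.7%), against 7.24% of genes. The nuclear receptor half-site AGGTCA, the unit to which PPARγ and its partner bind in pairs, stood in 3 of 30 (10.0%), the promoters of Eno1, Ldhb and Tpi1, against 16.0% of genes. A match describes the letters in this window and does not show binding. GC content differs between promoters and was not matched in these shares.

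Genes that act in sequence, in one complex or as related forms of the same step, such as Aldoa and Aldoc, were compared across the 16 animals, as 9 pairs. Aldoa and Aldoc varied together, with r = 0.757 and rho = 0.794 (permutation test, n = 16, adjusted p = 0.00198 and 0.00414). The coefficient was 0.697 without the 2 animals farthest out in Aldoa, 0.763 in the 11 animals of the most common array code, and 0.754 after centring on diet and array range. Leaving out each animal in turn gave 0.711 to 0.829, and quantile normalization gave 0.674 (permutation test, adjusted p = 0.0219). Control animal 4 and PIO animal 13, the highest in Aldoa at 15.17 and 15.13, were also among the highest in Gapdh, at 15.44 and 15.38. How far other bright genes vary together in this way was not tested. The probe set of Aldoa is of a kind that can bind related sequences, so the 2 values may share some signal. Pgk1 and Pgam1 had r = 0.599 and rho = 0.618 (permutation test, n = 16, adjusted p = 0.0673 and 0.0572), and r = 0.653 after centring (permutation test, adjusted p = 0.0293). For this pair r was 0.519 without the 2 animals farthest out in Pgk1 and 0.506 after quantile normalization (permutation test, adjusted p = 0.258 and 0.206). It was 0.712 in the most common array code, and 0.487 to 0.661 when each animal was left out. The pyruvate dehydrogenase subunits did not pass in any pair, with r = 0.319 for Pdha1 and Pdhb, 0.177 for Pdhb and Dlat and 0.0177 for Dlat and Dld. Ldha and Ldhb had r = 0.228, and Bsg and Slc16a1, chaperone and transporter, r = 0.243. Slc2a1 and Slc2a3 had r = -0.16.

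Some members moved with cell type markers across animals, in a family of 14 relations chosen after the diet results were known. Pygb followed the mean of the astrocyte list, with r = 0.865 and rho = 0.806 (permutation test, n = 16, adjusted p = 7.7e-04 and 0.00462). Without the 2 animals farthest out in Pygb, r was 0.672. It was 0.950 within the most common array code and 0.798 after centring on diet and array range, and 0.765 to 0.943 when each animal was left out in turn. Pygb followed the hippocampal neuron list nearly as well, with r = 0.817 (permutation test, n = 16, adjusted p = 0.00112), and the 2 relations were not separated. Its relation to oligodendrocyte markers had r = 0.673 but rho = 0.376 (permutation test, n = 16, adjusted p = 0.0191 and 0.265). For it r was 0.395 without the 2 animals farthest out in Pygb, and as low as 0.356 with 1 animal left out. Pfkfb3 followed the hippocampal neuron list, with r = 0.797 and rho = 0.785 (permutation test, n = 16, adjusted p = 7.7e-04 and 0.00462), with 0.826 without the 2 animals farthest out in Pfkfb3 and 0.734 to 0.874 when each animal was left out. It also followed the astrocyte list, with r = 0.703 (permutation test, adjusted p = 0.00703). The endothelial list had r = 0.486 with Slc2a1, 0.520 with Bsg and 0.145 with Slc16a1, and the astrocyte list r = 0.329 with Aldoc, none of which passed after adjustment. After centring on diet and array range, the endothelial values were 0.334, -0.016 and 0.137 in the same order. That list includes Cdh5 and Kdr, which were below the filter.

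**Figure D5:**
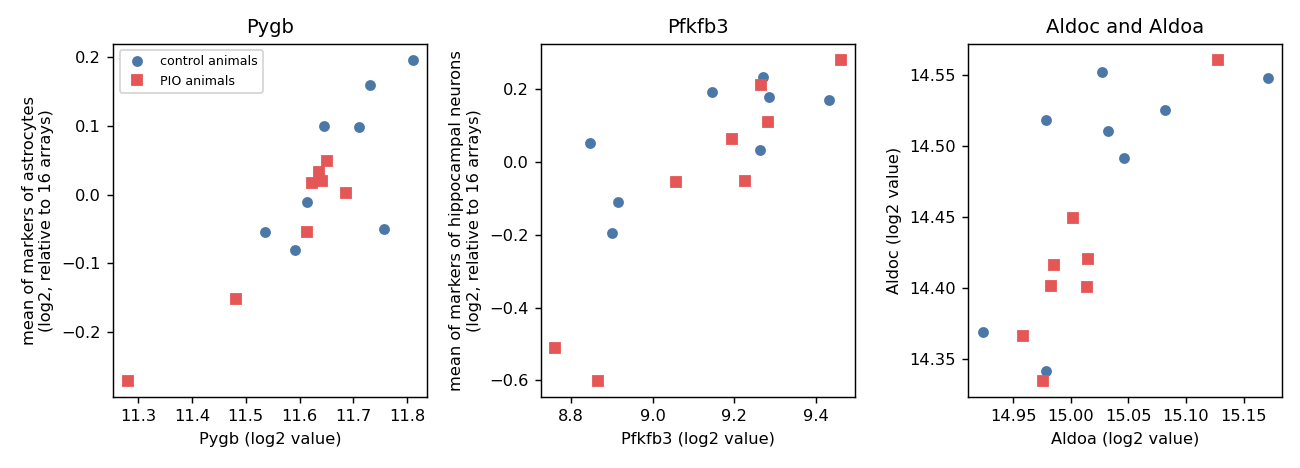
Mean of astrocyte markers (y axis) against the log2 value of Pygb (x axis), mean of hippocampal neuron markers against Pfkfb3, and log2 value of Aldoc against Aldoa, with 1 point per animal. The values rise together in each panel, with r of 0.865, 0.797 and 0.757.

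The members varied little between animals of a group. The median SD within groups was 0.0893, against 0.130 over all genes tested, and 24 of 31 members lay below the latter. Among the 933 genes read from probe sets brighter than the members' median, the median SD was 0.0821. Hk2, Slc16a7, Slc2a1 and Pfkfb3 varied most, with SDs of 0.275, 0.248, 0.235 and 0.225, and Pgam1 and Pfkfb2 least, with 0.0402 and 0.044. For 20 of 31 members the SD was larger under PIO than in controls, as for 7232 of 12265 genes. Single animals were often at the top. Control animal 4 held the highest control value for 13 of 31 members (41.9%, against 23.1% of all genes). PIO animal 13 held the highest PIO value for 10 of 31 (32.3%, against 22.1%). Over 949 genes, the members and those brighter than their median, these shares were 32.6% and 28.0%, so bright genes in general showed much of this.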

How the data were processed

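Total RNA of 16 hippocampi was hybridised to Affymetrix mouse arrays, 8 per diet. The authors deposited 1 value per probe set and array. Per the submitters' processing notes, MAS5, GCRMA and R 2.7.1 were used, with no role given, and the log2 scale of the deposited values was read from the values themselves (0.33 to 16.6). Of 45101 probe sets, 34958 carried a single gene symbol. Probe sets with a mean above the 40th percentile (3.59) were kept. Each gene was read from its brightest single-symbol probe set, with 13 control probe sets of a mouse gene included. Diet was tested with lmFit and eBayes in limma 3.58.1 (R 4.3.3) on the deposited log2 values, with Benjamini-Hochberg adjustment over 12265 genes. The 8 animals per diet limit the precision of the differences. Correlations used 100000 permutations. By rule, the 6 members of smallest p and 10 key enzymes and transporters are given in full, with the other members by their differences. The members and lists were chosen with earlier results of these data known. The model fits were tested on simulated data. Promoters came from RefSeq tables (GRCm38.p6). Alternatives covered the filter, normalization, probe set choice, array codes, covariates and single animals.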

Additional observations from a re-analysis of the deposited data

Results flagged for a closer look

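In groups of 8 animals, the highest or lowest animal was set against its nearest neighbour. Of 82 groups tested, 6 had 1 animal far from the others, where chance gives about 1 in 20. That count is near the chance share, the groups share the same 16 arrays, and the 6 are listed as description only. PIO animal 16 was highest for Slc2a4 at 2.21, a gene below the filter. PIO animal 13 was highest for Aldoa at 15.13, against 15.02 for the next animal. Control animal 7 was highest for Pgam1 at 14.51. PIO animal 11 was highest for Eno2 at 14.57, the neuronal enolase. Control animal 4, often the highest control among the members, was highest for Pdha1 at 12.68. PIO animal 14, which also had a high striatal marker mean, was lowest for Ugp2 at 11.78, against 11.94 for the next animal.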

How the results depend on the processing

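Under 36 alternatives, no member passed an adjusted p of 0.05 in the diet comparison, and the smallest adjusted p was 0.551. The count at an unadjusted p of 0.05 was 0 with all arrays and became 1 with the mean of all probe sets (Slc2a3), with probe sets of shared sequence left out (Dlat), with the array code as a term (Pygb) and with the array range as a term (Slc2a3). Among alternatives chosen after seeing the data, it was 1 without PIO animals 14 to 16 (Slc16a1) and 1 without control animals 1 to 4 (Slc2a3). Leaving out each animal in turn gave 0 to 1, with Aldoc at 1 without control animal 5 or PIO animal 13. The median over members ran from -0.011 to 0.0050 when single animals were left out. It was 0.020 both in the most common array code alone (20 members higher, 11 lower) and on arrays 10 to 24 alone (18 higher, 13 lower), against 15 higher and 16 lower with all arrays. The Aldoc difference reversed from -0.064 to 0.098 with probe sets of shared sequence left out, which takes another probe set. Of 1105 member values under alternatives, 121 had the opposite sign, 1 of them with both values larger than their SE. Some alternatives, such as the exact permutation test and the trended prior, keep the same mean differences, so their values could not change sign. The array range count of 5 ran from 3 to 7 when single animals were left out. The lowest count of 3 was reached without control animal 1 or 6, or without PIO animal 9, 10 or 12. The count of pairs past the threshold was 1 with all arrays, 2 after centring on diet and array range, and 1 to 2 when single animals were left out. It was 2 without control animal 7, PIO animal 11 or PIO animal 16. The causes were not tested. No paired analysis was possible because control animals are numbered 1 to 8 and PIO animals 9 to 16, with no number shared.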
